A study of Mus musculus with 8 samples.

Results

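Gene expression was compared between RAW macrophages that had been treated with a statin and untreated RAW macrophages, both at rest, that is with no lipopolysaccharide (LPS) added. Genes entered the comparison when their normalized counts averaged 10 or more across the 4 resting libraries, which was so for 11442 of the 24394 named genes in the table. Of the genes left out, 9439 had no read in these libraries and 3513 had a lower mean. There were 145 genes just inside this limit (means from 10 to 12) and 140 just outside it (means from 8 to 10).

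The Ctrl group was 2 libraries of cells with no treatment, labelled Ctrl, and the statin group was 2 libraries of cells given statin at 7 µM together with lipoprotein-deficient serum (LPDS). The labels say only "statin", and the study's own description of the experiment names lovastatin given with added mevalonate. The sources do not say whether the Ctrl cells also had LPDS or mevalonate. If they did not, the effects of the statin, of the serum and of mevalonate cannot be told apart here. A further 4 libraries, 2 labelled ctl LPS and 2 labelled statin LPS, were from cells stimulated with LPS at 100 ng/ml for 3 h. RAW macrophages are an established, virally transformed mouse macrophage line that divides in culture, and no genotype other than that of the line was given. Nothing states that replicates were separate cultures, so the p-values measure the spread between these libraries, which may be technical.

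Statins block the making of mevalonate, from which cells build both cholesterol and the prenyl chains that anchor small GTPases to membranes. When sterols in the endoplasmic reticulum run low, the factor SREBP2 is no longer held there and switches on the genes of sterol synthesis and uptake. When oxysterols are high, the nuclear receptor LXR switches on the cholesterol exporters, and macrophages, which take up much cholesterol from particles and dead cells, depend on this export.

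Each resting library held between 36.9 and 46.5 M reads on genes (M, 1000000 reads), and between 13475 and 13626 genes had at least 1 read. Precursor ribosomal RNA (Rn45s) took 1.73% of reads in statin replicate 2 and between 0.0707% and 0.153% in the other 7 libraries. The resting pairs varied more than the LPS pairs: over genes with a mean of at least 100, replicates differed by a log2 ratio whose robust SD was 0.215 for Ctrl and 0.149 for statin, against 0.0660 and 0.0781 under LPS. Along the main axis of variation (86.6% of the variance) the Ctrl libraries lay apart from the statin libraries. The defining macrophage genes were at high levels in all 4 libraries, with Lyz2 (lysozyme) between 342600 and 466183 normalized counts and Cd68 between 32336 and 37303. Markers of most other lineages were low: 8 of 9 neutrophil and mast cell markers, 7 of 12 lymphocyte markers and 7 of 10 fibroblast markers in the table had no read. The summed level of the fibroblast list was 46.1 and 168 normalized counts in Ctrl and 440 and 599 with statin, and that of the lymphocyte list was 201 and 150 against 291 and 236. Only 1 member of each list reached the mean needed for testing, Pdgfrb and Lck. Of 10 epithelial and endothelial markers 3 had no read, and their sum of 205 and 255 against 495 and 376 was nearly all Vwf, von Willebrand factor. The sum of the dendritic cell markers was not low, at 6517 and 12254 in Ctrl and 21313 and 24395 with statin, most of it Cd74, the invariant chain, and Itgax, which macrophages also express, and 2 of 12 had no read. All of these sums were higher with statin. Their part in the results below was not tested. In RNA from bulk cultures, fewer cells of a kind and less RNA per cell cannot be told apart.

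Statin moved a large part of the measured genes. In limma, on log2(normalized count + 1) over the 4 resting libraries and with Benjamini-Hochberg adjustment over all 11442 genes, 4944 genes passed an adjusted p of 0.05, or 43.2% of those tested. Of these, 2683 were higher with statin (23.4%) and 2261 were lower (19.8%), and 729 were higher (6.37%) and 653 lower (5.71%) by more than 2-fold. The rises reached further than the falls, since 206 genes rose and 85 fell by more than 4-fold, and 45 rose and 7 fell by more than 16-fold. Both statin libraries lay above both Ctrl libraries for 39.4% of genes and below both for 36.8%. The share of calls that were rises depended on scaling: it was 54.3% with the deposited size factors and 39.3% when every library was set to the same total, which moved the median log2 fold change of all genes by -0.12. With quantile normalization it was 48.7%. The number of calls also depended on which statin library was kept, with 969 genes higher and 741 lower without statin replicate 1, and 1435 higher and 1081 lower without statin replicate 2. With 1 statin library left, the spread, before limma's moderation across genes, comes from the Ctrl pair alone, the pair that varied most, and the remaining statin library is assumed to vary like it. Where a named gene lost its call in this way (103 losses in 65 genes), the log2 fold change that remained was 0.934 times the full one in the median, and from 0.507 to 1.30 times. Altogether 898 rises and 703 falls kept their call whichever of the 4 libraries was left out, and the count that did so is given for the main direction of most lists below.

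The gene lists were compared with these background shares (the plot of calls by list). Every member of the DNA replication and mitosis lists fell, and nearly every member rose in the lists of early response transcription factors, sterol synthesis, mevalonate pathway enzymes and NF-kB regulators. Under equal totals, of the lists drawn in that plot, only those of prenylation enzymes (0.06 to -0.06) and of Toll-like receptors (0.06 to -0.05) changed the sign of their median log2 fold change.

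**Figure D1:**
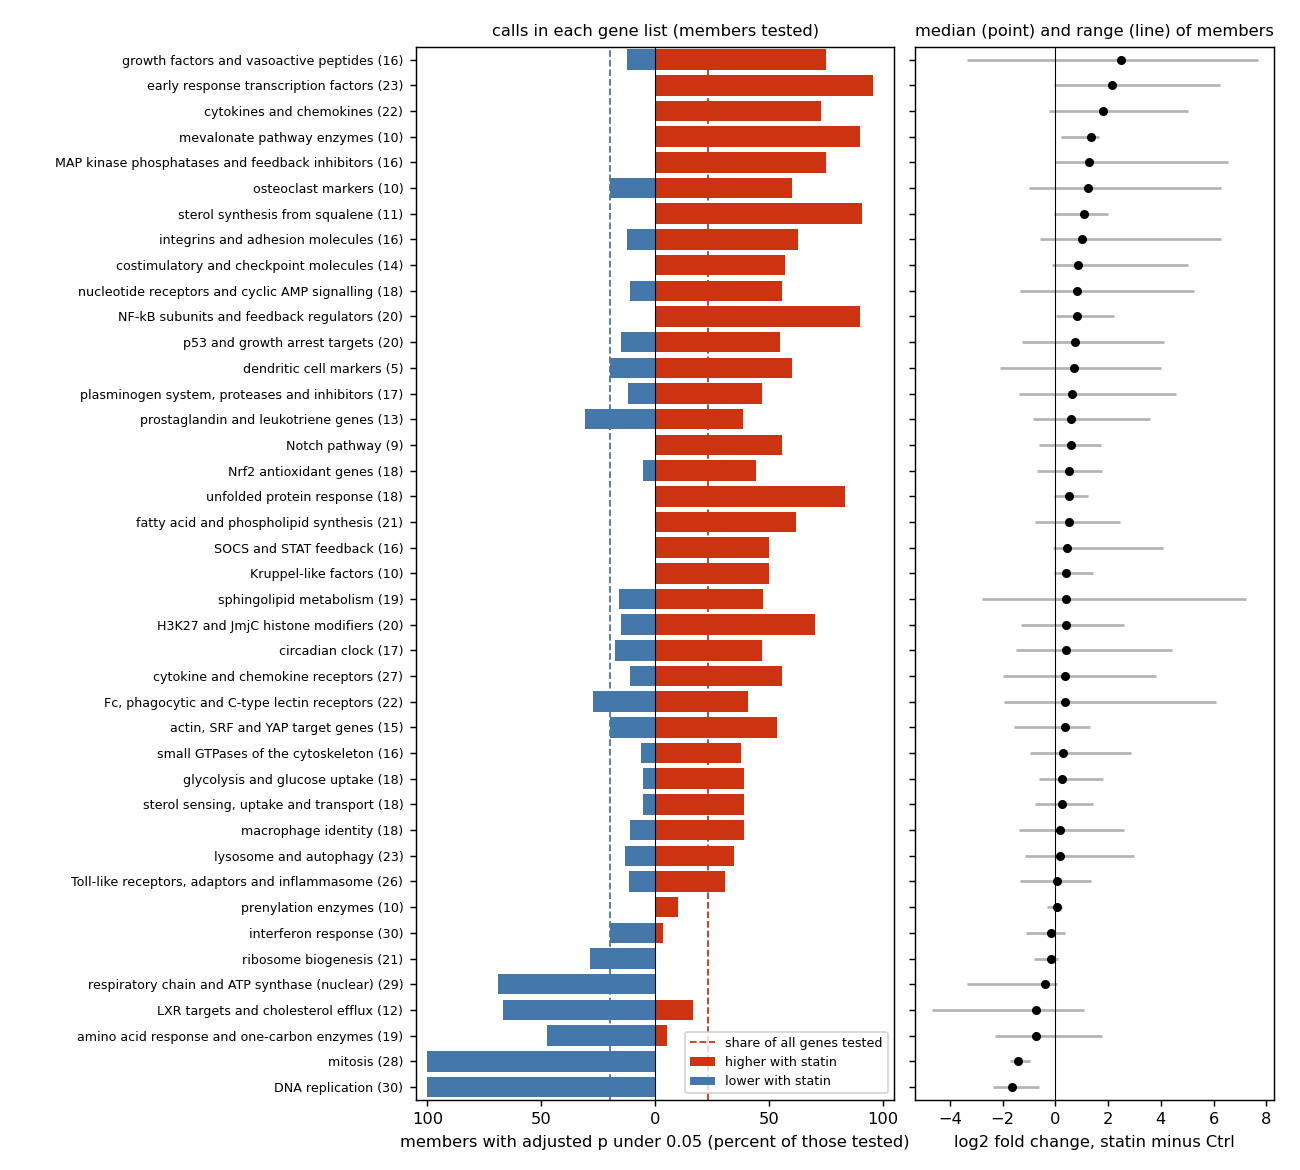
Left, for each gene list with at least 5 members tested, the percentage of members with an adjusted p under 0.05 that were higher (red) or lower (blue) with statin, with dashed lines at the shares over all genes tested (23.4% and 19.8%). Right, the median (point) and range (line) of the members' log2 fold changes. Growth factors and early response factors have the highest medians (2.47 and 2.14), and DNA replication has the lowest (-1.64). Some growth factor genes, near silent in Ctrl, were tested only because of their statin counts, which favours a high median.

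The enzymes of the mevalonate pathway rose almost as a set: 9 of 10 tested genes were higher (8 whichever library was left out), none was lower, and the median log2 fold change was 1.36, against 0.01 over all genes. Hmgcs1 (chr13:119690351-119708260; GRCm38 coordinates throughout), the HMG-CoA synthase early in the pathway, had 3020 and 5542 normalized counts in Ctrl and 11838 and 12417 with statin. The statin libraries were nearly equal and lay well above both Ctrl libraries, and Hmgcs1 rose by 1.57 ± 0.25 on the log2 scale (SE here and below; n = 2 libraries a group; adjusted p = 0.00244, limma). Mvd, which decarboxylates mevalonate diphosphate, had the greatest rise of the list, 1.65 ± 0.28, and Idi1, the isomerase that follows it, rose by 1.56 ± 0.16. Mvk (mevalonate kinase) did not pass the test, with 873 and 1037 in Ctrl and 1040 and 1193 with statin.

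Sterol response elements were sought in promoter windows from 250 bases before to 50 bases after the start of each gene, taken from RefSeq on GRCm38.p6, of which 8777 of the 11442 tested genes had one. The core element TCACNCCAC, on either strand, stood in 1.04% of these windows, and Hmgcs1 was the only one of 7 mevalonate pathway windows with it. The Hmgcs1 promoter is shown because this gene leads the pathway and holds the element. These are the 200 bases before its start (chr13:119690151-119690350, plus strand), with the element in capitals:
Hmgcs1: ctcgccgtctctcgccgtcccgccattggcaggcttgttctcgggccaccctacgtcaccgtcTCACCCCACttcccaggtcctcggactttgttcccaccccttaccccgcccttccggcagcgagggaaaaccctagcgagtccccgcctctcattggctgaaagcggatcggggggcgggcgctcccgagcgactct
The match lies 137 bases before the start. None of the 9 windows of the later sterol enzymes held these letters, which says nothing of elements elsewhere or with other spellings.

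The enzymes from squalene to cholesterol rose in the same comparison, with 10 of 11 higher (7 whichever library was left out), none lower and a median of 1.09. Tm7sf2, a sterol reductase, went from 123 and 250 normalized counts to 718 and 687, a rise of 2.00 ± 0.30. Hsd17b7, a sterol ketoreductase, rose by 1.32 ± 0.13. Ebp, the isomerase in the middle of this route, was the only member that did not pass, at 1207 and 1288 in Ctrl and 1220 and 1184 with statin.

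Ctrl replicate 2 stood between Ctrl replicate 1 and the statin libraries for these pathways. It was above Ctrl replicate 1 in all 11 enzymes from squalene onward and in 9 of 10 mevalonate enzymes, with median differences of 0.57 and 0.50 on the log2 scale. Over all genes tested it was above Ctrl replicate 1 in 5331 and below it in 6105. Both statin libraries were above Ctrl replicate 2 as well for each of these genes but Ebp, and what set the Ctrl libraries apart was not tested.

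**Figure D2:**
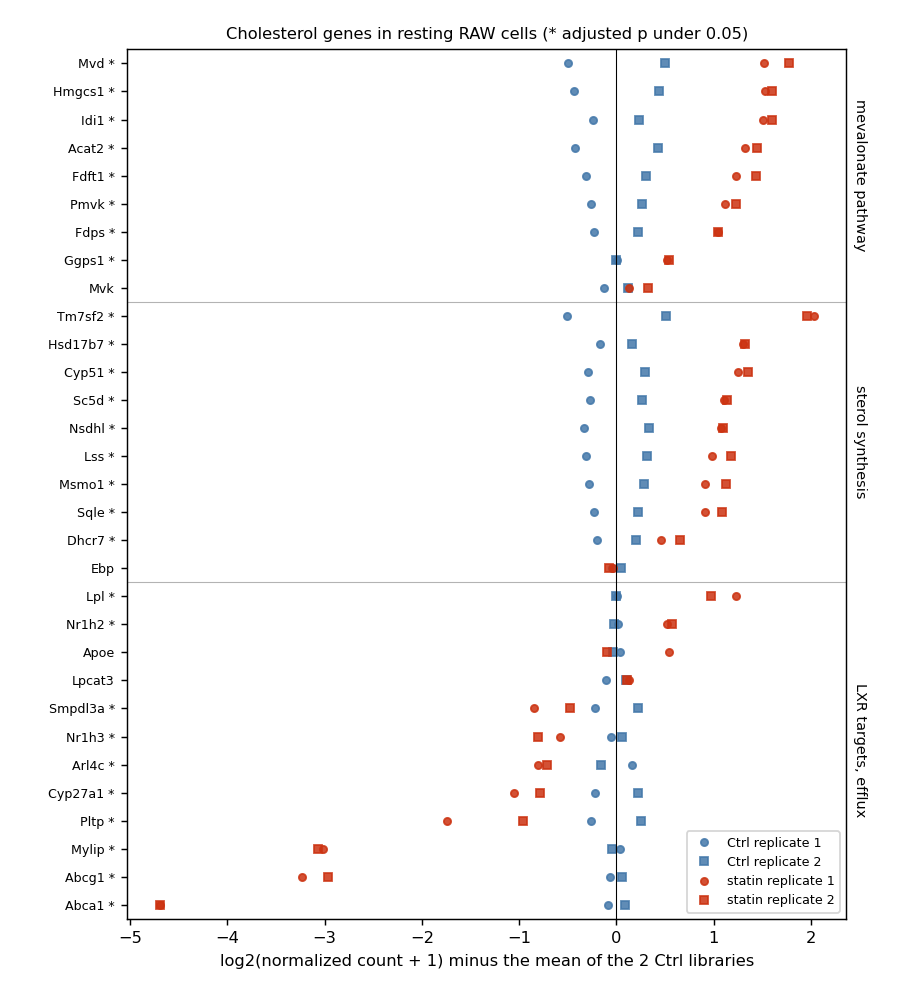
Each row is a gene, and each point is a library's log2(normalized count + 1) minus the mean of the 2 Ctrl libraries (blue, Ctrl; red, statin; circle, replicate 1; square, replicate 2). Asterisks mark an adjusted p under 0.05. Synthesis enzymes lie to the right with statin, while Abca1, Abcg1 and Mylip lie about 3 log2 units or more to the left.

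Among genes for sensing, uptake and transport, 7 of 18 rose (5 whichever library was left out) and 1 fell, with a median of 0.24. Insig1, which holds SREBP in the endoplasmic reticulum and is itself a target of SREBP, rose by 1.42 ± 0.20, from 2225 and 3624 to 7393 and 7843. Cd36, a scavenger receptor for oxidised LDL, rose by 1.20 ± 0.09. Soat1, which esterifies cholesterol for storage in droplets, was the member that fell, from 16254 and 19224 to 10004 and 10537 (-0.78 ± 0.12). Srebf1 was at 5718 and 5196 in Ctrl and 4815 and 4477 with statin and did not pass the test (adjusted p = 0.0982).

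The list of LXR targets and cholesterol efflux genes, which also holds the LXR genes themselves, went the other way. Of its members, 8 of 12 tested were lower and 2 higher, with a median of -0.72. Some of these falls, with that of Nr1h3 (LXR alpha) among them, lost their call when a library was left out. Abca1 (chr4:53030789-53159988), the exporter that loads cholesterol onto apolipoprotein A-I, had 458 and 517 normalized counts in Ctrl and 17.9 and 17.9 with statin. It was nearly absent from both statin libraries, and its log2 fold change of -4.69 ± 0.21 (adjusted p = 5.30e-05) was the greatest fall among the members of all lists. Abcg1 (chr17:31057694-31117984), the exporter to HDL particles, fell (-3.10 ± 0.12), from 10060 and 10929 to 1116 and 1339. Mylip, the ubiquitin ligase that LXR induces, fell (-3.04 ± 0.15), from 746 and 703 to 88.6 and 85.5. The members that rose were Nr1h2, which encodes LXR beta (0.54 ± 0.09), and Lpl, lipoprotein lipase (1.10 ± 0.17). The call of Lpl did not hold without statin replicate 1 (adjusted p = 0.0519). Apoe did not pass, with 139 and 132 in Ctrl and 198 and 127 with statin.

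Fatty acid and phospholipid genes rose in 13 of 21 cases (6 whichever library was left out) and fell in none, with a median of 0.52. Lpin1, a phosphatidate phosphatase and SREBP target, had the greatest rise, from 423 and 621 to 2527 and 3120 (2.45 ± 0.19). Elovl6, which lengthens palmitate, rose by 1.51 ± 0.13, and Acss2, which makes acetyl-CoA from acetate, by 1.47 ± 0.28. The call of Acss2 did not hold without statin replicate 1 (adjusted p = 0.0523) or statin replicate 2 (0.0605). Scd2, a desaturase, was at 20771 and 30189 in Ctrl and 21489 and 21670 with statin and did not pass.

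Prenylation was examined because farnesyl and geranylgeranyl groups are built from mevalonate, whose making statins block. The study describes mevalonate added with the statin, and whether these groups ran short was not measured here. Of the 10 enzymes that attach and process these groups, 1 passed the test, with a median of 0.06. That member was Fnta, the alpha subunit shared by farnesyl and geranylgeranyl transferase I (0.27 ± 0.09, adjusted p = 0.0476), and leaving out Ctrl replicate 2, or either statin library, raised this p above the threshold (0.0736, 0.204 and 0.224). Its adjusted p was 0.206 under equal totals, 0.0512 with edgeR and 0.0738 with DESeq2.

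The GTPases that steer the actin skeleton, whose membrane anchors need those groups, moved unequally: 6 of 16 rose (3 whichever library was left out), 1 fell and 9 did not pass. Rhob (chr12:8497661-8500009), a short-lived endosomal member, had 653 and 673 normalized counts in Ctrl and 7396 and 3238 with statin. The statin libraries differed from each other by more than 2-fold, yet both were far above the Ctrl libraries, and Rhob rose by 2.88 ± 0.32 (adjusted p = 0.00062). Rhoc, a promoter of actin contractility and motility, rose by 2.23 ± 0.12, from 3961 and 4367 to 21160 and 18092. Rhoa, Rac1 and Cdc42, the classical members, did not pass: Rhoa was at 23091 and 22934 in Ctrl and 19890 and 18432 with statin (-0.27 ± 0.11), Rac1 had a log2 fold change of -0.17 ± 0.10 and Cdc42 one of 0.01 ± 0.12. Rhoj fell (-0.94 ± 0.19), and this call was lost without statin replicate 1 (adjusted p = 0.0857). Rhou rose on few reads (1.88 ± 0.61; adjusted p = 0.0504 under equal totals and 0.133 with DESeq2), and leaving out Ctrl replicate 2 (0.0981) or either statin library (0.197 for replicate 1, 0.126 for replicate 2) ended its call.

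Genes of actin, of its transcription factor SRF and of the factor YAP, kept in 1 list, were split, with 8 of 15 higher and 3 lower. Some of the rises and all of the falls lost their call when a library was left out. Filip1l (1.30 ± 0.18) and Zyx, the focal adhesion protein zyxin (1.10 ± 0.14, from 1148 and 1443 to 2975 and 2555), rose. Tagln2 (transgelin-2) and the actin genes themselves fell: Actb was at 137818 and 132145 in Ctrl and 81206 and 81611 with statin (-0.73 ± 0.19), and Actg1 at 23747 and 27465 against 13768 and 15150 (-0.82 ± 0.13). Both statin libraries were below both Ctrl libraries for each actin gene, but the call of Actb was lost without statin replicate 1 (adjusted p = 0.19) or statin replicate 2 (0.165), and that of Actg1 without statin replicate 1 (0.0537). For Tagln2 (-0.74 ± 0.18) the adjusted p was 0.126 and 0.0748 without statin replicate 1 or 2. Srf itself did not pass, at 2193 and 2204 against 2262 and 2333.

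Several of the genes with the greatest rises were close to silent in Ctrl. Such genes reached the mean needed for testing through their statin libraries, so they could only be found higher. Edn1 (chr13:42301476-42307990), the vasoconstrictor endothelin-1, had 0 and 1.96 normalized counts in the Ctrl libraries and 530 and 229 with statin. In reads this was 2 against 836, or 441 times as many (95% exact interval 122 to 3648, which covers counting error only). Pgf (chr12:85166637-85177785), placental growth factor, had no read in Ctrl and 210 and 155 normalized counts with statin, at least 141-fold higher against a floor of 3 reads over the Ctrl group. Sphk1 (chr11:116530836-116536675), which makes sphingosine 1-phosphate, had 1 read in Ctrl and 471 in the statin libraries together, a ratio of 497 (interval 88.8 to 19673). Rab15, a Rab GTPase of recycling endosomes, was at least 84-fold higher, from 0 to 239 reads. The fitted changes of these genes depend on the pseudocount, but both statin libraries were far above both Ctrl libraries in each case, and statin replicate 1 was the higher of the statin pair in all 4.

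Of the other genes with the greatest rises, Clec4n had the closest replicates. Clec4n (chr6:123229843-123247024), the C-type lectin receptor Dectin-2, was at 19.5 and 18.6 in Ctrl and 1349 and 1408 with statin, a log2 fold change of 6.10 ± 0.17 (adjusted p = 1.14e-05). Pdpn (podoplanin, a membrane glycoprotein) rose from 5 to 766 reads (ratio 162, interval 69.0 to 499) and Itgb3 (integrin beta-3) from 8 to 521 (ratio 68.7, interval 34.6 to 160). Ptpn14 (a tyrosine phosphatase) rose from 3 to 279 reads (ratio 98.1, interval 33.2 to 479), and Gm13889, an unnamed gene model that shares 20.8% of its exon length with Gm27027 on the same strand, rose from 9 to 884.

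**Figure D3:**
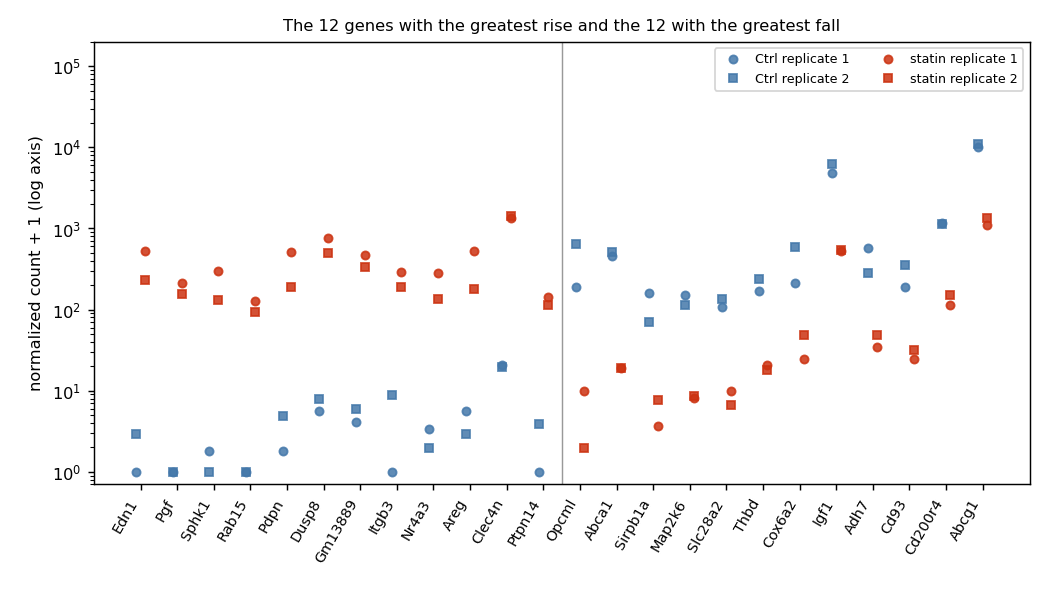
Normalized count + 1 on a log axis in each library (blue, Ctrl; red, statin; circle, replicate 1; square, replicate 2) for the 12 genes with the greatest rise and the 12 with the greatest fall in log2 terms, among those with a mean of at least 100 in the higher group. No statin value overlaps a Ctrl value, which the choice of genes required, and most of the rising genes sit at or near 0 in Ctrl.

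Igf1 (chr10:87858265-87937047), insulin-like growth factor 1, fell from 4785 and 6223 normalized counts to 533 and 539 (-3.35 ± 0.14, adjusted p = 3.33e-05). Opcml (chr9:27790716-28925410), a cell adhesion protein of the immunoglobulin family, was at 187 and 651 in Ctrl and 8.95 and 0.94 with statin. The libraries of each group differed widely for Opcml, but all of the statin values were below all of the Ctrl values (-6.32 ± 0.82). Thbd, the endothelial anticoagulant receptor thrombomodulin (-3.38 ± 0.27), Cd93, a phagocyte glycoprotein (-3.23 ± 0.33), and Map2k6, a kinase that activates p38 (-3.98 ± 0.31), fell too. Slc28a2, a nucleoside carrier, fell from 107 and 135 to 8.95 and 5.64. Cd200r4 fell from 1155 and 1127 to 112 and 149, and it and Sirpb1a (158 and 68.6 against 2.69 and 6.58) belong to families of near-identical immunoglobulin receptors whose reads the counting may have split. Adh7, an alcohol and retinol dehydrogenase, and Cox6a2, the muscle form of a cytochrome oxidase subunit, fell as well (-3.30 ± 0.35 and -3.36 ± 0.50).

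Growth factors and vasoactive peptides had the highest median of the lists with at least 5 genes tested, 2.47, with 12 of 16 higher (9 whichever library was left out) and 2 lower. The list has 25 members, and those not tested had lower means. Pgf, Edn1, Adm, Hbegf and Areg had at most 8 reads each over the Ctrl libraries. These genes were tested through their statin counts and could only be called higher, which favours a high count and median. Beside Edn1 and Pgf, Areg, the EGF receptor ligand amphiregulin, rose from 4.68 and 1.96 to 527 and 180 normalized counts, in reads a ratio of 103 (interval 51.9 to 239). Igf1 and Vegfb were the members that fell, and the call of Vegfb (-0.75 ± 0.14) was lost without statin replicate 1 (adjusted p = 0.0708). Tgfb1 was at 10899 and 10792 against 12674 and 12871 and did not pass.

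Early response transcription factors, which growth factors and inflammatory signals switch on within minutes and which limit one another, rose in 22 of 23 cases (20 whichever library was left out), with none lower and a median of 2.14. Nr4a3, an orphan nuclear receptor, rose from 2.34 and 0.98 to 282 and 135, in reads a ratio of 121 (interval 47.0 to 446). Egr2, a zinc finger factor, rose from 137 and 333 to 5547 and 3849 (4.43 ± 0.37), and Maff, a small Maf protein, from 112 and 121 to 1927 and 1682 (3.94 ± 0.14). Fos, the best known member, was the exception: it was at 1912 and 1491 in Ctrl and 1522 and 1786 with statin (-0.03 ± 0.15), so the groups overlapped. In 19 of the 23 genes statin replicate 1 was higher than statin replicate 2.

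The MAP kinase phosphatases and related feedback inhibitors rose in 12 of 16 cases (10 whichever library was left out), with a median of 1.28. Dusp8 went from 4.68 and 6.86 to 770 and 496 (6.53 ± 0.31), Dusp14 from 0.781 and 4.90 to 69.8 and 36.7, and Dusp5, a nuclear phosphatase of ERK, from 50.7 and 35.3 to 542 and 420 (3.46 ± 0.24). Dusp6, the cytosolic ERK phosphatase, was at 1608 and 752 in Ctrl and 1061 and 1572 with statin, and did not pass. Of the Kruppel-like factors, 5 of 10 rose (1 whichever library was left out). Klf2 (chr8:72319062-72321654), a factor that statins raise in endothelial cells, was at 523 and 675 in Ctrl and 2642 and 987 with statin (1.44 ± 0.40, adjusted p = 0.0226). Statin replicate 1 carried most of this rise: without it the adjusted p was 0.0792, and without Ctrl replicate 1 it was 0.0702. Klf7 rose, from 262 and 198 to 551 and 484, while Klf4 was at 2416 and 1484 against 3187 and 2140 and did not pass.

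NF-kB subunits and their feedback regulators rose in 18 of 20 cases (12 whichever library was left out), with none lower and a median of 0.83. Zfp36, which destabilises cytokine mRNAs, went from 1372 and 1525 to 7428 and 6015 (2.21 ± 0.13), Traf1, a TNF receptor adaptor, from 962 and 991 to 4065 and 3994 (2.04 ± 0.09), and Nfkbiz, a nuclear IkB protein, from 710 and 772 to 2213 and 2135 (1.55 ± 0.11). Nfkb1 did not pass (0.18 ± 0.10).

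A 10-letter NF-kB element stood, on either strand, in 5 of the 17 windows of this list (29.4%) and in 4 of 13 windows of cytokines (30.8%), against 1.71% of all windows. List members were counted here whether or not they were called. Over all genes called higher with statin the element stood in 2.09% of windows, and over all called lower in 1.68%. The promoters of Nfkbia and Tnfaip3, which encode the inhibitors IkB alpha and A20, are shown because both hold the element close to the start. These genes were chosen after their values were seen. The sequences are the 200 bases before each start, with the element in capitals (chr12:55492648-55492847, minus strand for Nfkbia and chr10:19015411-19015610, minus strand for Tnfaip3):
Nfkbia: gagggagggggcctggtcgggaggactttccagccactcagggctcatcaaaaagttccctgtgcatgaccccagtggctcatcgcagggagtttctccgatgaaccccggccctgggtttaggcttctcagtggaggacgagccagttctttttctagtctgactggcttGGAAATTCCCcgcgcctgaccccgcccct
Tnfaip3: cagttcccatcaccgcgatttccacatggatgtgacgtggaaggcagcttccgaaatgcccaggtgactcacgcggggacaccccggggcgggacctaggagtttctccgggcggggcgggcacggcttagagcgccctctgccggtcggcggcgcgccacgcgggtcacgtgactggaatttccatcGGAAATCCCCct
The elements lie 29 and 12 bases before the start. Tnfaip3 was at 664 and 676 in Ctrl and 1484 and 1764 with statin (1.27 ± 0.12), and Nfkbia at 6729 and 5803 against 8435 and 10918 (0.62 ± 0.14). The call of Nfkbia was lost without statin replicate 2 (adjusted p = 0.104).

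Cytokines and chemokines rose in 16 of 22 cases (10 whichever library was left out), with none lower and a median of 1.79. Cxcl2 (chr5:90903899-90905938), which attracts neutrophils, had 660 and 564 normalized counts in Ctrl and 23054 and 17072 with statin, a log2 fold change of 5.02 ± 0.16 (adjusted p = 1.15e-05). The CC chemokines Ccl3 (2341 and 2741 against 92320 and 55245, 4.82 ± 0.22) and Ccl4 (627 and 959 against 25451 and 16866, 4.74 ± 0.24), which attract monocytes and T cells, had the next greatest rises. Tnf (chr17:35199367-35202007) rose from 2311 and 2147 to 18290 and 14292 (2.86 ± 0.13) and Il1b (chr2:129364569-129371164) from 182 and 170 to 886 and 1520 (2.72 ± 0.24). For each of these 5 genes the statin libraries were far above the Ctrl libraries. The rise did not take in all inflammatory cytokines: Il6 was at 22.6 and 27.4 in Ctrl and 22.4 and 19.7 with statin, Ccl5 at 212 and 174 against 210 and 241, and Cxcl10, an interferon target, at 575 and 564 against 621 and 651, none past the test. Il10 and Il12a had no read.

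The interferon response stood apart from the cytokines. Of 30 genes, 1 rose and 6 fell, against 23.4% and 19.8% of all genes, and no call of this list held whichever library was left out. The median was -0.17. The libraries of each pair also differed: Ctrl replicate 2 was below Ctrl replicate 1 in 28 of the 30, by a median of 0.45 on the log2 scale, and statin replicate 2 was above statin replicate 1 in 27. Irf7 was at 1760 and 786 in Ctrl and 929 and 1602 with statin, so the groups overlapped. Isg15 was at 270 and 179 against 206 and 262.

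The receptor side was mixed. Of 27 cytokine and chemokine receptors, 15 rose (4 whichever library was left out) and 3 fell (1). Ccr1, the receptor of Ccl3, rose from 46.1 and 19.6 to 589 and 318 (3.80 ± 0.43), Ccrl2, an atypical receptor that binds chemerin, from 148 and 255 to 945 and 1282 (2.49 ± 0.26), and Il13ra1 by 1.49 ± 0.20. Csf3r, the receptor of granulocyte colony-stimulating factor, fell from 551 and 912 to 141 and 229 (-1.97 ± 0.29). Of 26 Toll-like receptor and inflammasome genes, 8 rose (3 whichever library was left out) and 3 fell (none of which held), and the median of 0.06 was close to that of all genes. Irak2 (1.35 ± 0.10), Nlrp3, the inflammasome sensor (1.23 ± 0.14), and Ticam1, the adaptor TRIF (1.16 ± 0.12), rose. Myd88 was at 3648 and 3472 against 3529 and 3493 and did not pass.

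Of the histone modifiers, 14 of 20 rose (5 whichever library was left out) and 3 fell (1). Kdm6b (chr11:69398508-69420367), the H3K27 demethylase also called Jmjd3, had 564 and 455 normalized counts in Ctrl and 3512 and 2647 with statin. Both statin libraries were well above both Ctrl libraries, with a log2 fold change of 2.59 ± 0.17 (adjusted p = 0.000111), the greatest of the list. Kdm5b (1.84 ± 0.18) and Kdm7a (1.69 ± 0.14), further histone demethylases of the list, also rose. Kdm6a, an H3K27 demethylase closely related to Kdm6b, chosen after its values were seen, was at 1251 and 1233 against 1521 and 1529 (0.30 ± 0.10, adjusted p = 0.0438). Its call did not hold without any of the 4 libraries (adjusted p from 0.0556 to 0.217) or under equal totals (0.168). The 3 members that fell were Ezh2, Eed and Suz12, the core of the complex that writes this mark. Ezh1 and Jarid2, which can also be part of that complex, were called higher. Ezh2 fell from 4636 and 3011 to 1507 and 1533 (-1.30 ± 0.19), while the calls of Eed (-0.38 ± 0.10) and Suz12 (-0.38 ± 0.10) were lost without statin replicate 1 (0.125 and 0.141) or statin replicate 2 (0.109 and 0.132), and that of Suz12 also without Ctrl replicate 1 (0.0529).

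Genes of the dividing cell fell throughout. All 30 DNA replication genes were lower with statin (29 whichever library was left out), with log2 fold changes from -2.37 to -0.61 and a median of -1.64, and all 28 mitosis genes were lower (28 whichever library was left out), from -1.73 to -0.98 with a median of -1.42. Ccne2 and Cdc6, which start and license replication, fell from 1568 and 1473 to 365 and 235 (-2.37 ± 0.20) and from 1493 and 1364 to 332 and 273 (-2.24 ± 0.14). Ccna2 (chr3:36564865-36573038), the cyclin of S phase and mitotic entry, had 11630 and 8396 normalized counts in Ctrl and 2970 and 2996 with statin (-1.73 ± 0.15, adjusted p = 0.000264). The statin libraries were nearly equal and Ctrl replicate 1 was the highest. That order within the Ctrl pair held in every gene of both lists, by a median of 0.26 on the log2 scale for replication and 0.45 for mitosis, so Ctrl replicate 2 stood nearer to the statin libraries here too. Pcna, the sliding clamp, chosen after its values were seen, was the replication gene whose call did not hold (adjusted p = 0.0623 with Ctrl replicate 1 left out and 0.163 with statin replicate 2 left out).

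**Figure D4:**
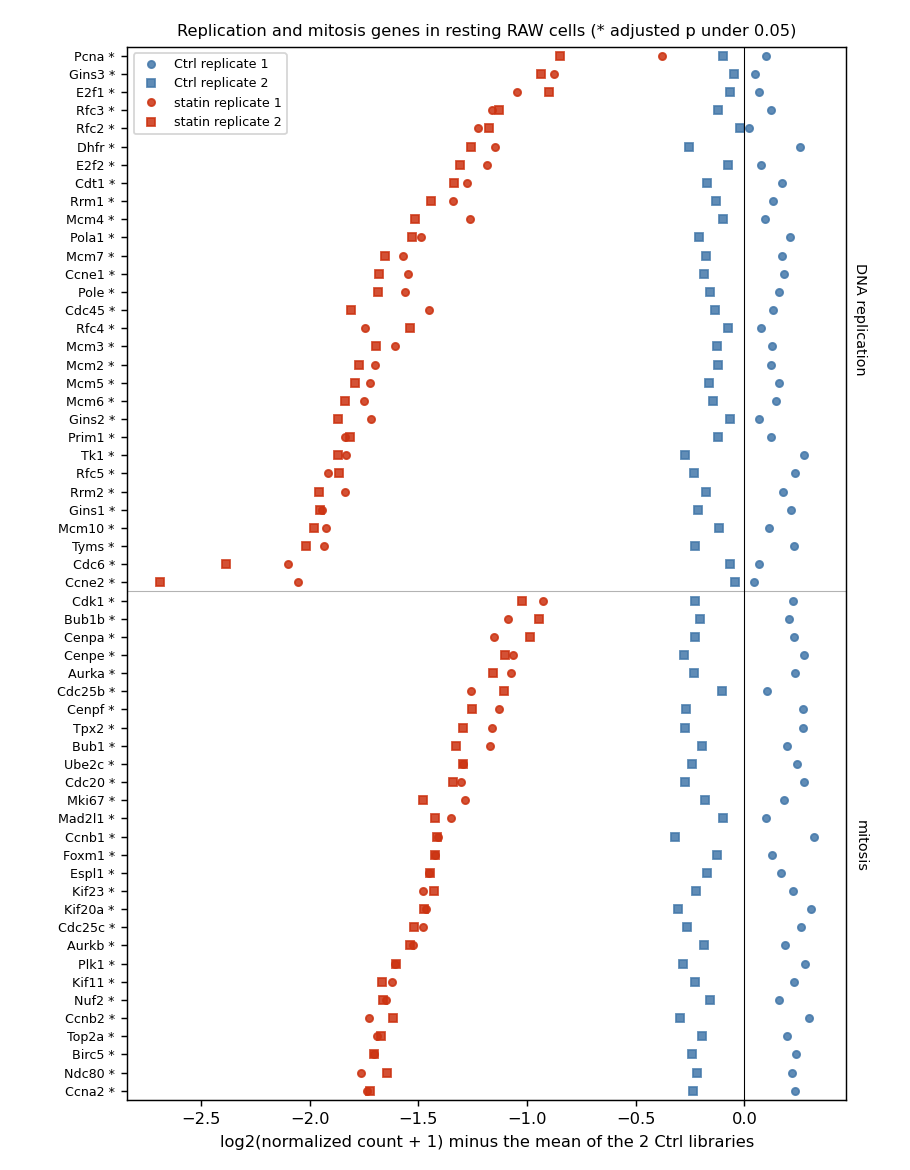
Each row is a gene, and each point is a library's log2(normalized count + 1) minus the mean of the 2 Ctrl libraries (blue, Ctrl; red, statin; circle, replicate 1; square, replicate 2). All genes drawn lie to the left with statin and pass the test, and Ctrl replicate 2 is to the left of Ctrl replicate 1 in every row.

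The promoters of these lists hold known cell cycle elements. The E2F element TTTNGCGC, on either strand, stood in 8 of 23 windows of replication genes (34.8%), against 2.71% of all windows, and the CHR element TTTGAA stood in 15 of 22 windows of mitosis genes (68.2%), against 11.8%. Mcm5 and Mcm6, subunits of the replicative helicase, are shown because their windows hold paired E2F elements, and they were chosen after their values were seen. The 200 bases before each start are given with the elements in capitals (chr8:75109309-75109508, plus strand for Mcm5 and chr1:128359706-128359905, minus strand for Mcm6):
Mcm5: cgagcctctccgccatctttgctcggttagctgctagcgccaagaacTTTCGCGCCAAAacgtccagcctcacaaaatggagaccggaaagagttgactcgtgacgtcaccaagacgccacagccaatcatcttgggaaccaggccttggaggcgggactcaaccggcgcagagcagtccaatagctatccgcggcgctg
Mcm6: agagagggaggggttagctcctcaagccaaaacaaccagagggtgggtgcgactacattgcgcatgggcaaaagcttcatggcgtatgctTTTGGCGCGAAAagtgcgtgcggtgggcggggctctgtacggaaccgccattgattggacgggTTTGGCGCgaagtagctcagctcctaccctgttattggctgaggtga
In each, a pair of overlapping matches on opposite strands gives a single run of capitals, and Mcm6 holds a further match nearer to the start. Mcm5 was at 10742 and 8593 in Ctrl and 2908 and 2777 with statin (-1.76 ± 0.12), and Mcm6 at 10693 and 8767 against 2875 and 2712 (-1.79 ± 0.12). A match in a window is a description and not evidence of binding.

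Among p53 and growth arrest targets 11 of 20 rose (6 whichever library was left out) and 3 fell (1). Plk3 (354 and 325 against 7763 and 4436, 4.11 ± 0.23) and Plk2 (420 and 367 against 7878 and 4264, 3.88 ± 0.25), stress-induced kinases that are also early response genes, rose most. Cdkn1a (chr17:29090979-29100722), the cyclin-dependent kinase inhibitor p21, was at 7836 and 8458 in Ctrl and 15257 and 14022 with statin, a rise of 0.85 ± 0.11 (adjusted p = 0.000961). Cdkn2c, the inhibitor p18, fell instead (-1.27 ± 0.12). Bax fell (-0.35 ± 0.10), and leaving out Ctrl replicate 2 (0.0525) or either statin library (0.132 for replicate 1, 0.169 for replicate 2) ended its call.

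Of 29 nuclear genes of the respiratory chain and ATP synthase, 20 fell (2 whichever library was left out) and none rose, with a median of -0.38, so the falls were shared but small. Beside Cox6a2, Atp5o, the stalk subunit of ATP synthase, fell from 6667 and 5715 to 3450 and 3700 (-0.79 ± 0.11) in a call that held, and Cyc1 (cytochrome c1) had -0.61 ± 0.12 in one that did not hold without statin replicate 1 (adjusted p = 0.0739) or statin replicate 2 (0.0511). Of 21 ribosome biogenesis genes 6 fell, none in a call that held throughout, and the other 15 did not pass, against 19.8% of all genes lower.

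Amino acid and serine-glycine genes fell in 9 of 19 cases (5 whichever library was left out), with 1 higher and a median of -0.73. Cth, which makes cysteine from cystathionine, went from 1494 and 812 to 218 and 231 (-2.29 ± 0.26), Trib3, a pseudokinase induced by the stress factor ATF4, from 3771 and 2591 to 938 and 1074 (-1.64 ± 0.18), and Phgdh, the first enzyme of serine synthesis, from 18321 and 13506 to 4972 and 6446 (-1.47 ± 0.18). Slc7a11, the cystine importer, was the member that rose, from 3080 and 2476 to 10503 and 8497 (1.77 ± 0.14). In this list too Ctrl replicate 2 was below Ctrl replicate 1, in 18 of 19 genes. Atf4 itself did not pass, at 19958 and 13651 against 18170 and 17490.

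The unfolded protein response rose in 15 of 18 cases (5 whichever library was left out), with none lower and a median of 0.52. Hspa5, the chaperone BiP, went from 35643 and 34099 to 88471 and 75491 (1.23 ± 0.16), and Ppp1r15a, a phosphatase subunit that reverses translational arrest, from 1367 and 1019 to 2646 and 2332 (1.07 ± 0.15). Antioxidant genes under Nrf2 rose in 8 of 18 cases (3 whichever library was left out) and fell in 1, with Hmox1, heme oxygenase, from 3037 and 3094 to 9618 and 7156 (1.44 ± 0.14). Among genes of glucose use 7 of 18 rose (3 whichever library was left out) and 1 fell. Slc2a1, the glucose carrier GLUT1, rose from 4011 and 3659 to 14282 and 12245 (1.79 ± 0.11), Hk1, a hexokinase, by 1.17 ± 0.13 and Slc16a3, a lactate exporter, by 1.05 ± 0.11.

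At the cell surface, 10 of 16 integrin and adhesion genes rose (10 whichever library was left out) and 2 fell (none of which held). Itgax, the CD11c chain, went from 185 and 482 to 5777 and 4062 (4.01 ± 0.39), and Itgam, the CD11b chain, from 7163 and 8762 to 23908 and 24004 (1.60 ± 0.13), although 68.7% of the exon length of Itgam is shared with the gene model Gm49368 on the same strand. The falls of Itgb5 (-0.45 ± 0.13) and Selplg (-0.60 ± 0.17) were lost without statin replicate 1 (adjusted p = 0.214 and 0.179), and that of Itgb5 also without Ctrl replicate 2 (0.0521). Costimulatory and checkpoint molecules rose in 8 of 14 cases (5 whichever library was left out) and fell in none. Pdcd1, the checkpoint receptor PD-1, had no read in Ctrl and 73 reads with statin, at least 25.7-fold higher, and Tnfrsf9 (4-1BB) rose from 4 to 206 reads (ratio 54.3, interval 20.9 to 201). Cd86 rose by 1.41 ± 0.20, from 99.2 and 77.4 to 244 and 227.

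Phagocytic and lectin receptors were divided, with 9 of 22 higher (3 whichever library was left out) and 6 lower (2). Clec4e, the receptor Mincle, rose from 7573 and 6731 to 26204 and 26884 (1.89 ± 0.11) beside Clec4n. Trem2, the lipid-sensing receptor of macrophages and microglia, fell from 11025 and 11792 to 5246 and 5957 (-1.03 ± 0.11). Mrc1, the mannose receptor, fell from 86.7 and 205 to 26.9 and 43.2 (-1.94 ± 0.43), in a call lost without statin replicate 1 (adjusted p = 0.101). Mertk, the receptor for dying cells, was at 1.56 and 21.6 in Ctrl and 49.2 and 41.4 with statin (2.60 ± 0.89, adjusted p = 0.0492), and the call was lost without statin replicate 1 (0.223) or statin replicate 2 (0.165) and with edgeR (0.0588), DESeq2 (0.0568) and equal totals (0.0565).

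Of 18 macrophage identity genes, 7 rose and 2 fell, against 23.4% and 19.8% of all genes. The median was 0.19, with members from -1.37 to 2.60. Most of these calls were lost when a library was left out. Csf1r, the receptor of macrophage colony-stimulating factor, was at 82140 and 97952 in Ctrl and 128942 and 143332 with statin (0.60 ± 0.20, adjusted p = 0.0477). This was among the greatest rises in normalized counts, yet the adjusted p was 0.174 when Ctrl replicate 1 was left out, 0.215 and 0.29 when statin replicate 1 or 2 was, and 0.0883 under equal totals. Markers of osteoclasts, which RAW macrophages can form in culture, did not move together, with 6 of 10 higher (4 whichever library was left out) and 2 lower. Mmp9, a gelatinase (170 and 54.9 against 2144 and 2465, 4.56 ± 0.44), Dcstamp, needed for cell fusion (169 and 102 against 1918 and 1065, 3.43 ± 0.32), and Atp6v0d2, a proton pump subunit (378 and 578 against 4338 and 3067, 2.96 ± 0.23), rose with Itgb3. Ctsk, cathepsin K, and Acp5, the osteoclast phosphatase, fell. The call of Ctsk (-0.65 ± 0.17) was lost without statin replicate 1 (0.0603) or statin replicate 2 (0.143), and that of Acp5 (-0.99 ± 0.32) also with DESeq2 (0.118) and without Ctrl replicate 1 (0.126, against 0.206 and 0.0884 without statin replicate 1 or 2).

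Enzymes and receptors of lipid mediators moved in opposite directions. Ptgs2, the inducible cyclooxygenase, rose from 561 and 496 to 8192 and 4907 (3.59 ± 0.22), Ptgs1, the constitutive form, by 1.74 ± 0.17, and Ptges, the prostaglandin E synthase, by 2.01 ± 0.22. In the same list 4 of 13 genes fell, among them Hpgd, which inactivates prostaglandins (-0.84 ± 0.16), and Alox5ap, needed for leukotriene synthesis (-0.72 ± 0.12), and no fall in this list held whichever library was left out (adjusted p = 0.0778 and 0.0533 for these genes without statin replicate 1). In sphingolipid metabolism 9 of 19 genes rose (4 whichever library was left out) and 3 fell (1). S1pr1, a receptor of sphingosine 1-phosphate, fell from 543 and 857 to 78.8 and 121 (-2.79 ± 0.28), opposite to Sphk1. Of 18 nucleotide and cyclic AMP genes 10 rose (7 whichever library was left out), led by Rgs16, a brake on G protein signalling (39.0 and 10.8 against 1340 and 499, 5.24 ± 0.62). Gpr183, the oxysterol receptor EBI2, fell from 2847 and 2765 to 1019 and 1223 (-1.33 ± 0.12).

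Smaller lists rose in part: 5 of 9 Notch genes (3 whichever library was left out), 8 of 17 clock genes (5, with 3 lower of which 1 held) and 8 of 16 SOCS and STAT feedback genes (5). Notch1 (1.75 ± 0.17) and its ligand Jag1 (1.60 ± 0.19) rose, from 169 and 219 to 693 and 606 and from 270 and 369 to 1083 and 849. Of the clock genes, Bhlhe40, a repressor of clock and cytokine genes, rose by 2.00 ± 0.13, and Dbp, an output factor, fell (-1.49 ± 0.20). Cish (5.47 and 4.90 against 116 and 94.0, 4.09 ± 0.33) and Socs3 (206 and 219 against 818 and 972, 2.07 ± 0.15), inhibitors of cytokine receptors, rose, as did Pim1, a kinase downstream of STAT factors (1.81 ± 0.11).

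In normalized counts, the greatest rise of all belonged to Spp1 (chr5:104435111-104441053), the secreted phosphoprotein osteopontin. It had 134029 and 110719 normalized counts in Ctrl and 1183340 and 954625 with statin, a rise of 3.13 ± 0.32 (adjusted p = 0.000464). No statin value was near a Ctrl value, and 18.8% of its exon length is shared with Gm42793 on the same strand. Ccl3, Cybb (an NADPH oxidase subunit), Cd9 (a tetraspanin), Plek (pleckstrin), Lpl, Hspa5 and Csf1r followed. Cd9 (1.85 ± 0.14) and Plek (1.69 ± 0.14) kept their calls whichever library was left out, and Cybb (0.88 ± 0.22) did not (adjusted p = 0.0793 without Ctrl replicate 1, 0.122 without statin replicate 1, 0.152 without statin replicate 2). The greatest falls in normalized counts were in Gpnmb, a lysosomal glycoprotein (154316 and 221053 against 82553 and 82833, -1.16 ± 0.24), Actb, Ctss, Npm1, Tubb5, Ptma, Cst3 and Ly6e. Of these only Tubb5, a tubulin of dividing cells (-1.12 ± 0.16), kept its call throughout. Without statin replicate 1 the adjusted p of the others was 0.116 for Gpnmb, 0.19 for Actb, 0.0608 for Ctss, 0.102 for Npm1, 0.15 for Ptma, 0.116 for Cst3 and 0.0968 for Ly6e. The calls of Gpnmb (0.0989), Actb (0.165), Npm1 (0.0781), Ptma (0.173) and Cst3 (0.0566) were also lost without statin replicate 2, and that of Ptma without Ctrl replicate 1 (0.0619).

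A set of 10 genes was followed into the LPS libraries to show where the resting levels stand. Ctl LPS cells had 429352 and 449283 normalized counts of Tnf and 346517 and 329576 of Cxcl2, so the resting statin levels (up to 18290 and 23054) were far below those under LPS. Rhob was higher in the resting statin cells (7396 and 3238) than in ctl LPS cells (2455 and 2423), though only narrowly so in statin replicate 2. The statin effect differed between rest and LPS, by limma's interaction over all 8 libraries, for 6345 of the 11442 genes (55.5%). Over all genes, 31.8% were higher and 32.2% lower with statin under LPS. Among genes higher at rest with statin, 1222 were also higher and 698 were lower with statin under LPS, and among those lower at rest 875 were also lower and 604 were higher.

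**Figure D5:**
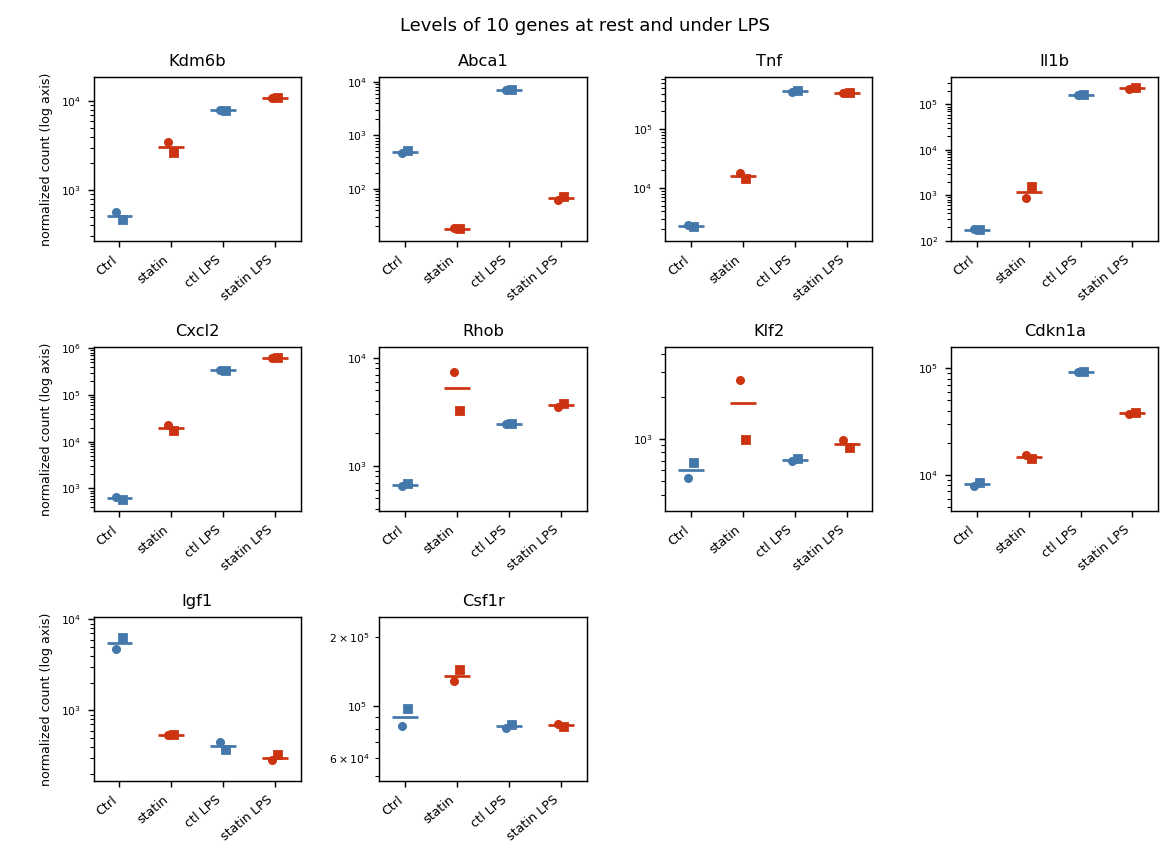
Normalized counts on a log axis in all 8 libraries for 10 genes (blue, no statin; red, statin; circle, replicate 1; square, replicate 2; line, mean of the pair). Cdkn1a is higher with statin at rest and lower under LPS, and Abca1 is lower with statin in both states.

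Reads of overlapping genes may be shared, because the sources used here do not give the strand that was counted. Among the genes described under the naming rule, the share of exon length that overlaps a gene on the other strand was 39.3% for Klf7, 22.1% for Dusp5, 18.01% for Dbp, 17.4% for Ccne2, 15.8% for Atp5o, 15.1% for Csf1r, 14.5% for Pim1, 13.3% for Alox5ap, 12.5% for Ccna2, 12.1% for Hmgcs1 and between 10% and 11% for Cd9, Cox6a2 and Rgs16. On the same strand it was 12.7% for Atp5o, 12.2% for Bax and 12.1% for Tm7sf2, beside the genes given above.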

How the data were processed

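RNA was sequenced from RAW macrophages after depletion of ribosomal RNA with a stranded kit. The submitters' processing notes name STAR 2.5.3, HTSeq 0.9.1, DESeq2 1.18.1 and the build mm10, while the study's methods name another quantifier and another version of DESeq2, and the strand setting and filters are not given in the sources used here. The deposited values are a signal, gene read counts that the authors divided by a size factor for each library. Whole reads were recovered from them: 100% of values in each library came out whole within 0.01 reads, and 1 read was worth 0.781 to 1.33. The table held 12 further columns of per-sample values, which were not used. Deposited tables of the authors' own comparisons hold fold changes and p-values and were not used. Of 24421 rows, 27 whose symbol had become a date were left out (0.168% to 0.185% of reads).

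The main test was limma 3.58.1 (R 4.3.3; lmFit, then eBayes with a trend) on log2(normalized count + 1) over the 4 resting libraries, 2 a group, for genes with a mean of at least 10, with Benjamini-Hochberg adjustment. Fold changes are on that scale, which understates changes of low genes. The interaction was fitted over all 8 libraries. With 2 libraries against 2, an exact permutation test of a single gene cannot go below p = 0.333. The alternatives were other pseudocounts (0.5 and 5), no filter or a mean of at least 50, equal totals, quantile normalization, all 8 libraries, a replicate block, edgeR 4.0.16 and DESeq2 1.42.0 on recovered reads, and leaving out each library.

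The gene lists and all choices were made with earlier results of these data known. Genes named are those past the threshold whose statin values lay above, or below, both Ctrl values: the 12 greatest rises and 12 greatest falls in log2 terms with a mean of at least 100 in the higher group, the 8 greatest rises and 8 greatest falls in normalized counts, and up to 3 in each direction per list, together with a set always given, of which 10 are reported (Kdm6b, Abca1, Tnf, Il1b, Cxcl2, Rhob, Klf2, Cdkn1a, Igf1 and Csf1r). Some genes that the rule selects are not reported here. List members that did not pass may be given with their values. Exact intervals (95%) and the floor of 3 reads cover counting error only. Promoter windows and coordinates are from RefSeq on GRCm38.p6.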

Additional observations from a re-analysis of the deposited data

Results flagged for a closer look

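The effect of statin differed between resting and LPS-treated cells, by limma's interaction over all 8 libraries at an adjusted p of 0.05, for 26 of the 32 genes given as greatest changes in log2 terms or always given. Values in parentheses are the log2 fold change under LPS minus that at rest. The genes given as greatest changes were chosen for their resting change, which this difference subtracts. That choice by itself favours a call and a smaller effect under LPS, so neither is separate support. Of all genes tested, 55.5% passed the same test. Of the other 157 genes selected by the naming rule, without those not reported here, 121 did. Among genes with the greatest rises at rest the effect was smaller under LPS for Edn1 (-5.72), Pgf (-2.76), Sphk1 (-3.64), Pdpn (-4.10), Dusp8 (-5.55), Gm13889 (-6.56), Nr4a3 (-5.27), Areg (-4.68), Clec4n (-3.59) and Ptpn14 (-2.98). Gm13889 had a log2 fold change of -0.23 under LPS that did not pass. Without statin, LPS-treated cells already averaged 538 normalized counts of Edn1, 496 of Dusp8, 1813 of Gm13889 and 2202 of Nr4a3. The averages were 151 for Pdpn, 274 for Areg and 159 for Clec4n, and 4.83 for Pgf, 18.6 for Sphk1 and 12.4 for Ptpn14.

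Among the genes always given, the effect under LPS was below that at rest for Csf1r (-0.59), Rhob (-2.31), Cxcl2 (-4.15), Kdm6b (-2.11), Tnf (-2.97), Il1b (-2.21) and Cdkn1a (-2.14). Cdkn1a, higher with statin at rest, was lower with it under LPS, with a log2 fold change of -1.30. Genes that fell at rest had a smaller fall, or none that passed, under LPS for Opcml (4.77), Map2k6 (2.43), Slc28a2 (1.25), Thbd (3.90), Igf1 (2.93), Cd93 (3.37) and Cd200r4 (2.43). In ctl LPS cells Thbd, Map2k6 and Opcml averaged 1.47, 4.6 and 11.9 normalized counts, so a fall as large as that at rest could not be measured there. The cholesterol exporters Abca1 (-2.05) and Abcg1 (-3.77) fell further under LPS, where their log2 fold changes were -6.74 and -6.87.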

How the results depend on the processing

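Leaving out 1 library at a time gave from 969 to 2854 genes higher with statin and from 741 to 2542 lower, against 2683 and 2261. The lowest counts came without statin replicate 1, and without statin replicate 2 they were 1435 and 1081. Every other alternative gave counts within 1.5 times those of the main fit, and no gene called in it was called in the opposite direction under any of them. With equal totals 2019 genes were higher and 3114 lower. For genes whose effect differed between rest and LPS, the counts ran from 5883 to 7737, against 6345. No source says that the replicate numbers pair the samples, and they were taken as numbers only: the correlation of the log2 ratios of replicate 1 to replicate 2 between Ctrl and statin was 0.0941 over 11442 genes and 0.122 over the 10019 with a mean of at least 100, and the replicate block gave 2899 genes higher and 2513 lower. Of the 193 genes selected by the naming rule, 128 kept their call whichever library was left out.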
